A study of Mus musculus with 30 samples.

Results

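RNA was examined for 10 genes of the epithelial to mesenchymal transition, chosen by symbol from the 14685 genes in the deposited expression table. They are the epithelial genes Cdh1, Epcam and Ocln, the mesenchymal genes Cdh2 and Vim, and the transcription factors Snai1, Snai2, Zeb1, Zeb2 and Twist1. The highest value of each exceeded 1 FPKM, the limit for testing, so all 10 were tested. RNA had been sequenced from 5 populations along the differentiation of the mouse embryonic stem cell (ESC) line E14 to blood, each from 3 genotypes in 2 replicates, giving 30 samples. The populations were ESC, Flk1+ cells isolated from embryoid bodies with magnetic beads, and 3 populations sorted after 2 days of blast culture. All 3 were KIT+. Cells with Tie2 but without CD41 were called HE1 (HE for haemogenic endothelium), cells with both were called HE2, and cells with CD41 but without Tie2 were called progenitors. The genotypes were unmodified E14 (WT), Sp1ΔDBD/ΔDBD, in which the DNA-binding domain of the transcription factor Sp1 was deleted, and Sp3-/-, a knockout of the related factor Sp3. Each mutant was 1 ESC line derived from E14, so a difference between a mutant and WT cannot be told apart from a difference between single lines. The sorted cells came from cultures in which floating and adherent cells had been combined. The values are bulk values, in which fewer cells of a type and less RNA per cell cannot be told apart.

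In an epithelial to mesenchymal transition, cells give up the junctions that tie them into a sheet and become motile. E-cadherin, encoded by Cdh1, holds epithelial cells together at adherens junctions. Epcam encodes another epithelial adhesion molecule, and Ocln encodes occludin, a component of tight junctions. N-cadherin (Cdh2) and the intermediate filament protein vimentin (Vim) are the usual mesenchymal markers. The zinc finger factors of the SNAI family (Snai1, Snai2) and the ZEB family (Zeb1, Zeb2) bind E-boxes in promoters such as that of Cdh1 and repress them, and Twist1 encodes a basic helix-loop-helix factor that also drives the transition. Mesoderm forms from the epiblast through such a transition. Blood later emerges from haemogenic endothelium by an endothelial to haematopoietic transition, in which flat endothelial cells round up and detach.

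In the GENCODE M21 annotation of GRCm38, Cdh1 spans chromosome 8, 106603351 to 106670246, Epcam chromosome 17, 87635979 to 87651129, and Ocln chromosome 13, 100496507 to 100552718. Snai1 (167538195 to 167542814), Vim (13573927 to 13582826) and Zeb2 (44983632 to 45117395) share chromosome 2. Snai2 lies on chromosome 16, 14705852 to 14709385, and Twist1 on chromosome 12, 33957671 to 33959829. FPKM values here summarise a whole gene, so no value belongs to a single exon.

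RefSeq (GRCm38.p6) gave promoters for 6 of the genes. The 250 bases before 4 of their start sites are shown 5′ to 3′, since Epcam and Ocln changed at both WT steps up to HE1 and Snai1 and Twist1 are factors that rose from ESC to Flk1+ cells. Capitals mark each E-box (CACCTG or its reverse complement CAGGTG, the letters bound by SNAI and ZEB factors) and each GC box (GGGCGG or CCGCCC, the letters bound by Sp1 and Sp3). Both strands were searched.
Epcam, chr17:87635729-87635978, plus strand: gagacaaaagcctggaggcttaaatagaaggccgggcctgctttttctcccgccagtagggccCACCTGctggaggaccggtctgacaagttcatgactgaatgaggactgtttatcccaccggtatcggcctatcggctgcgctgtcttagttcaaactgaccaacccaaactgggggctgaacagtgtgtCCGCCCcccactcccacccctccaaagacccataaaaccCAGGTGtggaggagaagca
Ocln, chr13:100552719-100552968, minus strand: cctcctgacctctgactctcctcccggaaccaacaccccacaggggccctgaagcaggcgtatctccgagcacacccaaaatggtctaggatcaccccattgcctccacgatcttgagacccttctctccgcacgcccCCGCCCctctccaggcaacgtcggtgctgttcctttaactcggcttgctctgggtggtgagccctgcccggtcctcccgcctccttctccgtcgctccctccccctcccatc
Snai1, chr2:167537945-167538194, plus strand: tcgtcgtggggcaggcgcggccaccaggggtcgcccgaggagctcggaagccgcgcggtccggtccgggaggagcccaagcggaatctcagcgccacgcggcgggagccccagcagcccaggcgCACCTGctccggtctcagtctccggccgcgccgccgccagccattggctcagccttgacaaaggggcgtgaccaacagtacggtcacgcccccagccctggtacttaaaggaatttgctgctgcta
Twist1, chr12:33957421-33957670, plus strand: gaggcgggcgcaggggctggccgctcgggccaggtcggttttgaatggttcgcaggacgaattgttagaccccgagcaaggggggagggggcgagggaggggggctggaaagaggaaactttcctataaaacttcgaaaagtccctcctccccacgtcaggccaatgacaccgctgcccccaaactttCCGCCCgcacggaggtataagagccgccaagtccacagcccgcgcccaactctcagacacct
Counted from the start site, the Epcam promoter held E-boxes at -187 and -19 and a GC box at -58. The Ocln promoter held a GC box at -112 and no E-box, while the window before its other start, which lies 220 bases inside the gene, held E-boxes at -213 and -68 and a GC box at -43. The Snai1 promoter held an E-box at -126 and no GC box. The Twist1 promoter held a GC box at -62 and no E-box. The only Vim start given lies 384 bases inside the gene. The window before it held neither, and the bases before the 5′ end of Vim were not searched. Of the 4 Zeb2 promoters 0 held an E-box. The Zeb2 promoter at the 5′ end of the gene held no GC box, while those of starts 4116, 4142 and 7118 bases inside the gene held 1 each, the same one in the first and second of these, whose windows overlap. Of all 32851 promoters in the table, 17.2% held an E-box and 32.7% a GC box in the same 250 bases. These are matches of letters and say nothing of binding.

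The authors calculated FPKM values (fragments per length of gene, scaled to the mapped fragments of a sample) and quantile normalised them, so that every sample had a median of 7.19 FPKM. No read counts go with the values, and the depth behind each of them is unknown. Of the 300 values of the 10 genes, 107 were below 1 FPKM and 20 were the lowest value listed in their sample. The markers of the labelled cells were highest where the labels place them. The summed FPKM of 8 ESC markers was 2122 to 2809 in ESC and at most 491 elsewhere, that of 10 endothelial markers was highest in HE1 (1368 to 1976), and that of 10 haematopoietic markers was highest in progenitors (1939 to 13991). Sp3 had 3.38 to 7.79 FPKM in Sp3-/- and 25.9 to 58.1 in WT samples. The Sp1 row covers the whole gene and cannot show the deleted domain. In 6 libraries, replicate 1 of HE1, HE2 and progenitors in WT and in Sp1ΔDBD/ΔDBD, transcripts of the keratin Krt8 were 7.87 to 24.7 times as high as in replicate 2 of the same group, against 0.924 to 2.39 times in Sp3-/-. In WT HE1 Krt8 was 386 FPKM in replicate 1 and 35.4 in replicate 2. Acta2 (1138 and 224 FPKM), Col1a1 (94.98 and 6.08) and Postn (89.8 and 6.74), genes of smooth muscle and fibroblasts, differed the same way. Of 10 fibroblast markers 6 are in the table, Col1a1 and Postn among them. The summed FPKM of these 6 markers differed less, with 408 and 211 in WT HE1 and 230 and 178 in Sp1ΔDBD/ΔDBD HE1. Calls of the 10 genes that changed without these 6 libraries are given beside each result, an analysis chosen after the data were seen, in which 6 groups keep 1 sample each and take their spread from the other groups.

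**Figure D1:**
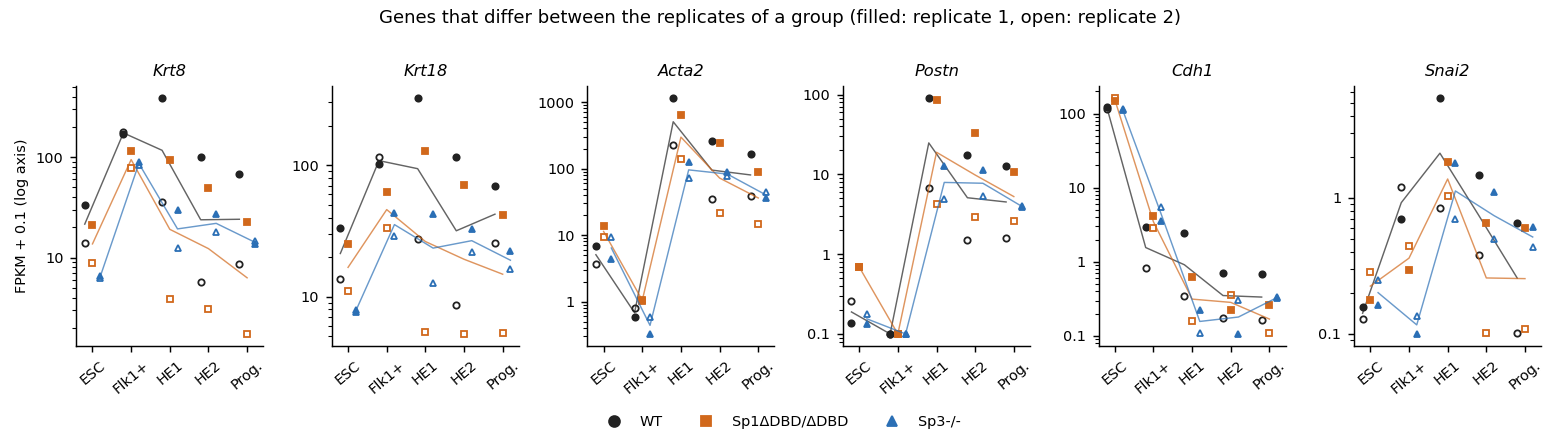
Each panel plots the FPKM + 0.1 (log axis) of Krt8, Krt18, Acta2, Postn, Cdh1 or Snai2 in the 5 populations, with filled symbols for replicate 1, open symbols for replicate 2, 1 symbol shape for each genotype and lines through the means of the log2 values. In HE1, HE2 and progenitors of WT and Sp1ΔDBD/ΔDBD the filled symbols of the keratins stand apart from the open ones (386 against 35.4 FPKM of Krt8 in WT HE1), which the symbols of Sp3-/- do less.

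Tests were made with limma on log2(FPKM + 0.1), as a single fit over the 15 groups with Benjamini-Hochberg adjustment over 14525 genes in each comparison. A gene is said to rise, fall or be called where its adjusted p, two-sided, was below 0.05. With 2 samples a group, the smallest two-sided p of an exact permutation test is 0.333, and the p-values given here rest on the spread shared over all groups. In this fit the standard error of a log2 difference between 2 groups was the same in each comparison of a gene. It was lowest for Vim (0.18), Cdh2 (0.20), Zeb1 (0.21) and Zeb2 (0.24), between these and the highest for Ocln (0.39), Twist1 (0.52), Epcam (0.61) and Snai1 (0.61), and highest for Cdh1 (0.90) and Snai2 (1.02). Fold values given as "times" are ratios of mean FPKM, while log2 differences carry the 0.1 and understate the change of low genes.

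In WT cells, Cdh1 RNA was lost almost completely at the first step. Cdh1 was 123 and 114 FPKM in ESC, 2.85 and 0.724 in Flk1+ cells, 2.33 and 0.244 in HE1, 0.610 and 0.0735 in HE2, then 0.579 and 0.0650 in progenitors. Both ESC samples stood far above the rest, and the later populations overlapped. From ESC to Flk1+ cells Cdh1 fell from 119 ± 6.30 to 1.79 ± 1.502 FPKM (SD, n = 2), 66.5 times lower, with a log2 difference of -6.25 (limma adjusted p = 9.72e-06). Its change from Flk1+ to HE1 was -0.77 on the log2 scale and was not called (0.502). Replicate 1 of WT HE1, one of the 6 libraries rich in keratin, had 9.52 times the Cdh1 of replicate 2, and without the 6 libraries the same step was -2.18 and was called (limma adjusted p = 0.0184).

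Epcam left more slowly. It was 57.7 and 48.3 FPKM in WT ESC and still 7.94 and 6.34 in Flk1+ cells, and was then at most 0.331 in the 6 WT samples of HE1, HE2 and progenitors. The fall from ESC to Flk1+ cells was -2.88 on the log2 scale (limma adjusted p = 0.000547), and that from Flk1+ to HE1 was -5.62 (3.30e-07). ESC, Flk1+ and later samples did not overlap. Ratios are not given for the last step, since replicate 2 of WT HE1 was listed at 0.

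Occludin followed another course than the other 2 epithelial genes. Ocln was 4.05 and 2.60 FPKM in WT ESC, 0.130 and 0.172 in Flk1+ cells, 3.75 and 5.74 in HE1, 1.96 and 2.21 in HE2, then 0.728 and 0.984 in progenitors. The HE1 samples overlapped those of ESC, and both Flk1+ samples lay below all others. It fell 22.0 times from ESC to Flk1+ cells (log2 difference -3.74, limma adjusted p = 1.40e-07) and rose 31.5 times from Flk1+ to HE1 (4.25, 3.77e-08). The later falls, -1.12 to HE2 (0.0438) and -1.20 to progenitors (0.0440), were close to the threshold, and each was lost on leaving out any 1 of its 4 samples. Without the 6 libraries both of these were lost (0.0917 and 0.233).

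The mesenchymal genes rose as Cdh1 fell, but each peaked in its own population. Cdh2 (chromosome 18, 16588877 to 16809246) was 3.88 and 3.26 FPKM in WT ESC, 57.2 and 56.2 in Flk1+ cells, 49.7 and 38.7 in HE1, 17.7 and 12.7 in HE2, then 7.52 and 4.81 in progenitors. It rose 15.9 times from ESC to Flk1+ cells (log2 difference 3.96, limma adjusted p = 7.27e-12). From Flk1+ to HE1 the difference was -0.37 (0.128), and Cdh2 then fell at both later steps, with log2 differences of -1.55 (3.22e-05) and -1.301 (0.000137). Without the 6 libraries the Flk1+ to HE1 difference was -0.55 and was called (0.0194).

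Vim was the most abundant of the 10 genes in every group from Flk1+ cells on, on the FPKM scale, which is per length. In WT it was 49.9 and 64.7 FPKM in ESC, 187 and 202 in Flk1+ cells, 2259 and 2745 in HE1, 1057 and 1125 in HE2, then 265 and 318 in progenitors. No neighbouring populations overlapped. Vim rose 3.39 times to Flk1+ cells (1.77, 1.32e-07) and a further 12.9 times to HE1 (3.68, 1.46e-11), to 2502 ± 344 FPKM (SD, n = 2). It then fell 2.29 times to HE2 (-1.19, 0.000155) and 3.74 times to progenitors (-1.91, 9.55e-07), where the brackets hold the log2 difference and the limma adjusted p. Cdh2 was thus at its highest mean in Flk1+ cells and Vim in HE1.

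Of the factors, Snai1 peaked in Flk1+ cells. It was 0.30 and 0.269 FPKM in WT ESC, 14.8 and 13.1 in Flk1+ cells, 3.45 and 1.68 in HE1, 0.692 and 0.432 in HE2, then 0.376 and 0.000832 in progenitors. The Flk1+ samples stood above all others. Snai1 rose 49.0 times from ESC to Flk1+ cells (log2 difference 5.19, limma adjusted p = 7.88e-07), and fell 5.45 times to HE1 (-2.48, 0.00208) and 4.56 times to HE2 (-1.95, 0.0278). The fall to HE2 was lost without HE1 replicate 1 and without either HE2 replicate. The last step was -1.57 (0.104), and without the 6 libraries -2.40 (0.00345), where progenitors are left with the sample at 0.000832 FPKM.

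Snai2, its close relative, stayed low and differed between replicates. It was 0.0578 and 0.0278 FPKM in WT ESC, 0.603 and 1.11 in Flk1+ cells, 5.31 and 0.742 in HE1, 1.37 and 0.282 in HE2, then 0.557 and 0.000832 in progenitors. In each of the last 3 populations the higher value was replicate 1, the library rich in transcripts of Krt8, Acta2, Col1a1 and Postn. The part of these in the value was not tested. The rise from ESC to Flk1+ cells was 2.70 on the log2 scale (limma adjusted p = 0.0325) and was lost with a pseudocount of 1 and on leaving out any 1 of the 4 samples compared. No later WT step of Snai2 was called. Its HE1 step changed sign without the 6 libraries, from 1.21 (0.341) to -0.13 (0.893).

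Zeb1 and Zeb2 rose over 2 steps and then parted. Zeb1 (chromosome 18, 5591860 to 5775467) was 2.05 and 2.68 FPKM in WT ESC, 7.12 and 8.26 in Flk1+ cells, 15.5 and 17.2 in HE1, 8.94 and 7.50 in HE2, then 4.55 and 3.78 in progenitors. It rose 3.25 times to Flk1+ cells (log2 difference 1.67, limma adjusted p = 1.87e-06) and 2.12 times to HE1 (1.08, 0.000268), and fell at both later steps (-0.98, 0.00255, and -0.97, 0.00366). The last of these falls was lost without HE2 replicate 1 and without the 6 libraries. Zeb2 was 0.643 and 0.397 FPKM in WT ESC, 14 and 14.5 in Flk1+ cells, 32.5 and 30.2 in HE1, 39.99 and 29.2 in HE2, then 40.8 and 34.5 in progenitors. It rose 27.4 times to Flk1+ cells (4.56, 1.81e-11) and 2.20 times to HE1 (1.13, 0.000703). Zeb2 did not fall again. Its later steps were 0.13 each (limma adjusted p = 0.770 and 0.829), and the HE2 samples overlapped those of both HE1 and progenitors, while both progenitor samples lay above both HE1 samples.

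Twist1 was 0.118 and 0.225 FPKM in WT ESC, 5.60 and 4.42 in Flk1+ cells, 5.13 and 8.003 in HE1, 2.64 in both HE2 samples, then 1.52 and 1.15 in progenitors. It rose 29.2 times from ESC to Flk1+ cells (log2 difference 4.25, limma adjusted p = 1.35e-06). No later WT step was called, although the samples of HE1, HE2 and progenitors did not overlap. The step from HE1 to HE2 passed with a pseudocount of 1 (-1.03, limma adjusted p = 0.0247). It also passed with the compared populations only (-1.25, 0.0373) and with a replicate block within each population (-1.25, 0.0429).

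**Figure D2:**
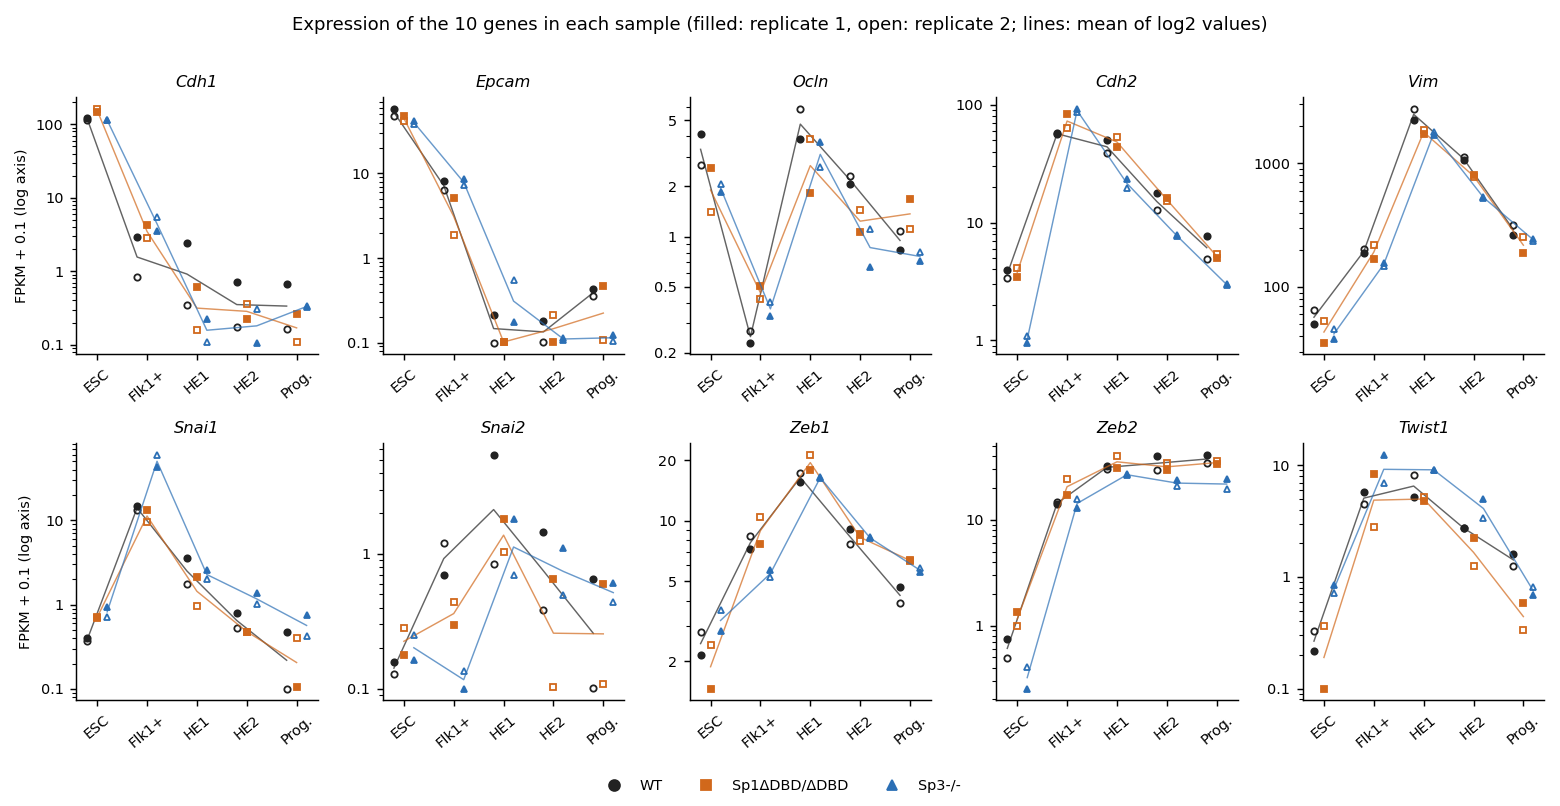
Each panel plots the FPKM + 0.1 (log axis) of 1 of the 10 genes in the 5 populations, with filled symbols for replicate 1, open symbols for replicate 2, 1 symbol shape for each genotype and lines through the means of the log2 values. Cdh1 and Epcam drop after ESC, Ocln is lowest in Flk1+ cells, Snai1 peaks there, Vim and Zeb1 peak in HE1, and Zeb2 stays near its HE1 level to the progenitors.

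The makeup of the factor RNA therefore differed along the course. The FPKM of the 5 factors summed to 3.16 and 3.604 in WT ESC, where Zeb1 gave the most. The sum was 42.2 and 41.4 in Flk1+ cells, with Snai1 the highest in replicate 1 (35.2% of the sum) and Zeb2 in replicate 2 (35.0%). It was 61.8 and 57.7 in HE1, with Zeb2 at 52.5% and 52.2%, and 47.8 and 39.4 in progenitors, with Zeb2 at 85.4% and 87.5%. Zeb2os, a noncoding gene on the strand opposite to Zeb2, was at most 0.0542 FPKM in ESC and 0.733 to 4.38 elsewhere. The methods give default settings for both aligner and counter and name no strand option, so reads of the 2 genes cannot be told apart. Annotated antisense genes also overlap Cdh2 and Zeb1.

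By counts, all 10 genes were called between WT ESC and Flk1+ cells, with 7 higher and 3 lower, where 52.2% of all genes tested were called, 27.4% higher and 24.7% lower. From Flk1+ to HE1, 4 rose (Ocln, Vim, Zeb1, Zeb2) and 2 fell (Epcam, Snai1), where 53.0% of all genes were called, 23.5% higher and 29.5% lower. From HE1 to HE2, 5 fell (Ocln, Cdh2, Vim, Snai1, Zeb1) and 0 rose, with 21.9% of all genes called, 11.7% higher and 10.2% lower. From HE2 to progenitors, 4 fell (Ocln, Cdh2, Vim, Zeb1) and 0 rose, with 13.2% called, 5.46% higher and 7.78% lower. At the 2 last steps, every called member was thus lower in the later population.

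The same genes can be read against other genes of their kind. Of 38 further epithelial genes tested (junction proteins, keratins, claudins and related genes), 25 fell and 1 rose (Pard6b) from WT ESC to Flk1+ cells, with a median log2 difference of -2.47, where the median of all genes was 0.03. Of all genes, 24.7% fell and 27.4% rose at this step. From Flk1+ to HE1, 12 fell and 8 rose, with a median of -0.60. These counts were near the shares of all genes, of which 29.5% fell and 23.5% rose. Without the 6 libraries 17 fell and 7 rose at this step (median -0.71). Among the 8 were Tjp1, F11r, Marveld2, Jup, Pkp2 and Perp. Several of these encode parts of junctions, as Ocln does. F11r, which encodes junctional adhesion molecule A, had 24.2 and 27.1 FPKM in ESC, 10.7 and 7.83 in Flk1+ cells and 62.3 and 87.1 in HE1, a fall of 1.48 (limma adjusted p = 6.64e-06) and a rise of 2.997 (1.10e-09) on the log2 scale. Jup, which encodes plakoglobin, had 26.3 and 31.9, then 4.69 and 5.77, then 63.0 and 67.9 FPKM (-2.45, 4.51e-08, and 3.63, 4.40e-10). As for Ocln, the Flk1+ samples of both genes lay below those of both ESC and HE1.

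Of 28 further mesenchymal genes, 15 rose and 5 fell (Acta2, S100a4 and Snai3 among them) from WT ESC to Flk1+ cells, with a median log2 difference of 0.94. Over all genes, 27.4% rose and 24.7% fell at this step, and 23.5% rose and 29.5% fell at the next. From Flk1+ to HE1, 18 rose and 2 fell (Cdh11 and Pdgfra), with a median of 1.64 (1.22 without the 6 libraries, with 17 and 3). Fn1, which encodes fibronectin, had 107 and 88.2 FPKM in ESC, 474 and 558 in Flk1+ cells and 925 and 936 in HE1 (2.40, limma adjusted p = 2.17e-06, and 0.85, 0.0248). Acta2 fell to 0.480 and 0.698 FPKM in Flk1+ cells and rose by 9.54 to HE1 (7.93e-07), with the replicates of HE1 5.08 times apart. From HE1 to HE2, 14 of the 28 fell and 0 rose (median -1.38), and from HE2 to progenitors 8 fell and 1 rose (-0.54). Over all genes, 10.2% fell and 11.7% rose at the first of these steps, and 7.78% fell and 5.46% rose at the second. Of 25 genes of TGF-beta signalling and of corepressors that SNAI and ZEB factors recruit, 15 rose and 3 fell from ESC to Flk1+ cells (median 0.78), where 27.4% of all genes rose and 24.7% fell. Ctbp2, a corepressor gene, fell from 119 and 116 to 28.9 and 30.3 FPKM (-1.99, 3.79e-09), while Ctbp1 rose by 0.70 (0.000827). Of 15 genes of catenins and other adhesion molecules, 6 rose and 0 fell (0.18) at the same step, with the same shares of all genes. Among these, Cdh5, the cadherin of endothelial junctions, had 0.0702 and 0.0896 FPKM in ESC, 1.62 and 2.09 in Flk1+ cells, 402 and 501 in HE1, 221 and 231 in HE2, then 28.2 and 24.3 in progenitors. It was thus the most abundant of the 3 cadherins named here in HE1, HE2 and progenitors.

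**Figure D3:**
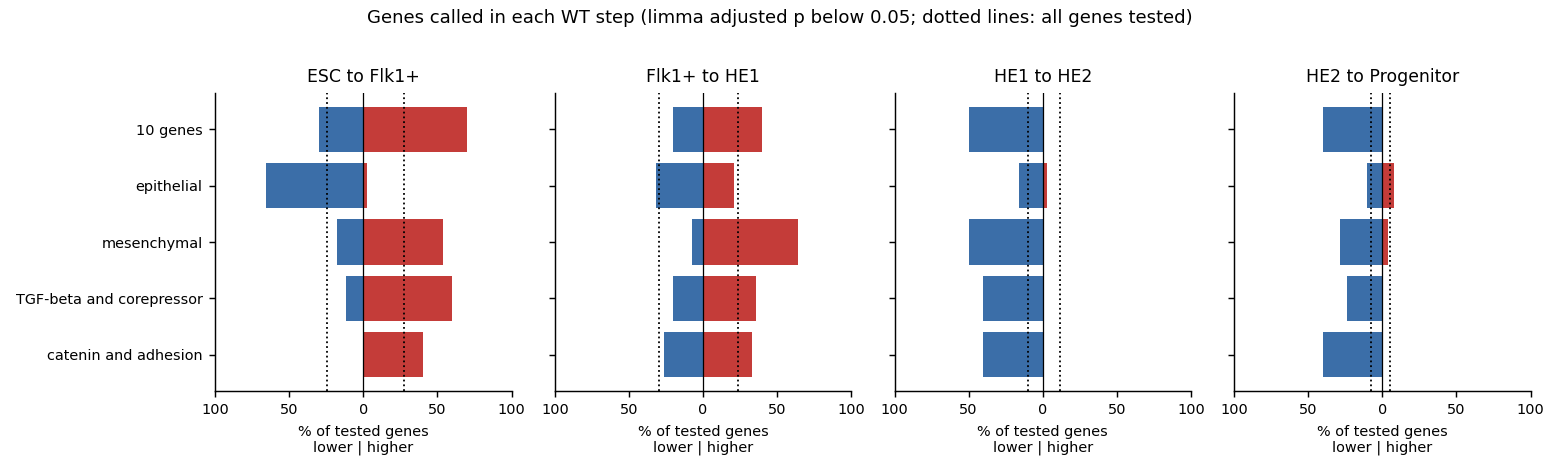
Bars show the percent of tested genes called lower (left, blue) and higher (right, red) by limma in each of the 4 WT steps, for the 10 genes and the 4 wider lists, and dotted lines show the percent for all genes tested. The epithelial bar points left at the first step (25 of 38 genes) and to both sides at the second, and no list but the epithelial and mesenchymal ones has a bar to the right at the last 2 steps.

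The mutants were then followed along the same steps. In each of the 3 genotypes 25 of the 40 tests of a step (10 genes, 4 steps) were called. The population with the highest mean was the same in all 3 genotypes for 8 of the genes. The exceptions were Zeb2, highest in WT progenitors and in HE1 of both mutants, and Twist1, highest in WT HE1 and in Flk1+ cells of both mutants, each with samples that overlapped those of the population with the next highest mean, except for Zeb2 in Sp3-/-, with 26.4 and 26.8 FPKM in HE1 and at most 24.2 elsewhere. From ESC to Flk1+ cells 6 genes rose and 3 fell in Sp1ΔDBD/ΔDBD (48.6% of all genes called, 26.3% higher and 22.3% lower) and in Sp3-/- (48.8%, 26.0% and 22.8%). The remaining gene was Snai2, with 0.68 (limma adjusted p = 0.616) and -0.79 (0.560). From Flk1+ to HE1, 4 rose and 4 fell in Sp1ΔDBD/ΔDBD (46.1% of all genes called, 20.9% higher and 25.1% lower). In Sp3-/- 5 rose and 4 fell at this step (44.0%, 20.7% and 23.3%). The genes that fell were Cdh1, Epcam, Snai1 and Cdh2 in both mutants, and those that rose were Ocln, Vim, Zeb1 and Zeb2, with Snai2 as well in Sp3-/- (3.27, limma adjusted p = 0.0137, lost with a pseudocount of 1 and without replicate 1 of Flk1+ or of HE1). Several of these calls rest on 1 sample. In Sp1ΔDBD/ΔDBD that of Cdh2 was lost without replicate 1 of Flk1+ cells or of HE1 (limma adjusted p up to 0.216) and without the 6 libraries (-0.46, 0.0503), that of Cdh1 without HE1 replicate 2 (0.0703), and that of Zeb2 without Flk1+ replicate 1 or HE1 replicate 2 (up to 0.170). In Sp3-/- that of Zeb2 was lost without Flk1+ replicate 1 (0.0637).

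At the later steps the members called in the mutants were again all lower in the later population. From HE1 to HE2 5 fell in Sp1ΔDBD/ΔDBD (20% of all genes called, 9.74% higher and 10.3% lower) and 4 in Sp3-/- (14.4%, 6.78% and 7.61%). From HE2 to progenitors 3 fell in Sp1ΔDBD/ΔDBD (15.8%, 6.73% and 9.10%) and 3 in Sp3-/- (8.77%, 2.96% and 5.81%). Cdh2 and Vim fell at both steps in all genotypes. Twist1 fell from HE2 to progenitors in both mutants, from 2.11 and 1.15 to 0.484 and 0.234 FPKM in Sp1ΔDBD/ΔDBD (-1.91, limma adjusted p = 0.0155) and from 4.87 and 3.27 to 0.591 and 0.714 in Sp3-/- (-2.45, 0.00456). The WT step was -0.95 (0.280), and the steps of the mutants were not called different from it (0.996 and 0.873). The call in Sp1ΔDBD/ΔDBD was lost with a pseudocount of 1, without HE2 replicate 1, without progenitor replicate 2 and without the 6 libraries (0.186), and that in Sp3-/- without replicate 1 of HE2 or of progenitors (up to 0.0520).

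Other calls at these later steps also changed without the 6 libraries. From HE1 to HE2 in Sp1ΔDBD/ΔDBD, Ocln (limma adjusted p = 0.0630) and Twist1 (0.0969) were lost and Snai2 was called (-3.35, 0.00715, against -2.42 and 0.105 with them). In Sp3-/-, which has none of the 6 libraries, the log2 differences stay as they were and the shared spread differs. There Epcam (-1.49, 0.0412) and Snai1 (-0.96, 0.0396) were called lower from HE1 to HE2, and Snai1 from HE2 to progenitors (-1.05, 0.0385).

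Sp3-/- cells were then compared with WT in each population, to ask whether loss of Sp3 moved these genes. Of 50 tests 8 were called, 5 of them for N-cadherin, and 19 had an unadjusted p below 0.05. Cdh2 was 0.855 and 0.989 FPKM in Sp3-/- ESC and 3.88 and 3.26 in WT ESC. It was 91.9 and 86.8 in Sp3-/- Flk1+ cells and 57.2 and 56.2 in WT. The mutant was thus below WT in ESC and above it in Flk1+ cells, and the samples did not overlap in either. In HE1 Cdh2 was 23.4 and 19.6 FPKM in the mutant and 49.7 and 38.7 in WT, in HE2 7.72 and 7.55 against 17.7 and 12.7, and in progenitors 2.87 and 2.88 against 7.52 and 4.81. In these 3 populations the mutant samples lay below both WT samples again. Over all genes, mutant samples lay below both WT samples for 33.0% in ESC, 26.0% in HE1, 27.3% in HE2 and 23.4% in progenitors, and above them for 33.2% in Flk1+ cells.

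The log2 difference of Cdh2 between Sp3-/- and WT was -1.84 in ESC (95% interval -2.26 to -1.43, limma adjusted p = 4.23e-05), where 11.3% of all genes were called. It was 0.65 in Flk1+ cells (0.0363, with 12.6% of all genes called), -1.03 in HE1 (0.00295, 10.9%), -0.96 in HE2 (0.00415, 13.8%) and -1.04 in progenitors (0.00342, 8.65%). By the means, Cdh2 was 3.87 times lower in ESC, 1.58 times higher in Flk1+ cells, and 2.06, 1.99 and 2.15 times lower in HE1, HE2 and progenitors. The call in ESC held under each alternative tried. That in Flk1+ cells was lost when GC content and length were corrected for and on leaving out any 1 of its 4 samples, with adjusted p-values up to 0.204. The call in HE1 was lost without Sp3-/- replicate 2, that in HE2 without WT replicate 1 and that in progenitors without WT replicate 1.

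Loss of Sp3 also went with a larger step of Cdh2 in both directions. From ESC to Flk1+ cells Cdh2 rose 96.9 times in Sp3-/- and 15.9 times in WT, and from Flk1+ to HE1 it was 4.16 times lower in Sp3-/- and 1.28 times lower in WT. The rise was larger in Sp3-/- than in WT by 2.50 on the log2 scale (95% interval 1.91 to 3.08, limma adjusted p = 0.000187), where 1.48% of all genes were called. The change to HE1 differed by -1.69 (-2.27 to -1.10, 0.00317, with 4.02% of all genes called). Both differences held under each alternative tried and rest in part on the same Flk1+ samples. They were 2 of 40 tests of a step difference in Sp3-/- that were called, and 10 had an unadjusted p below 0.05. The last 2 steps of Cdh2 differed from WT by 0.07 and -0.08, with adjusted p-values of 0.9997 and 0.999.

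**Figure D4:**
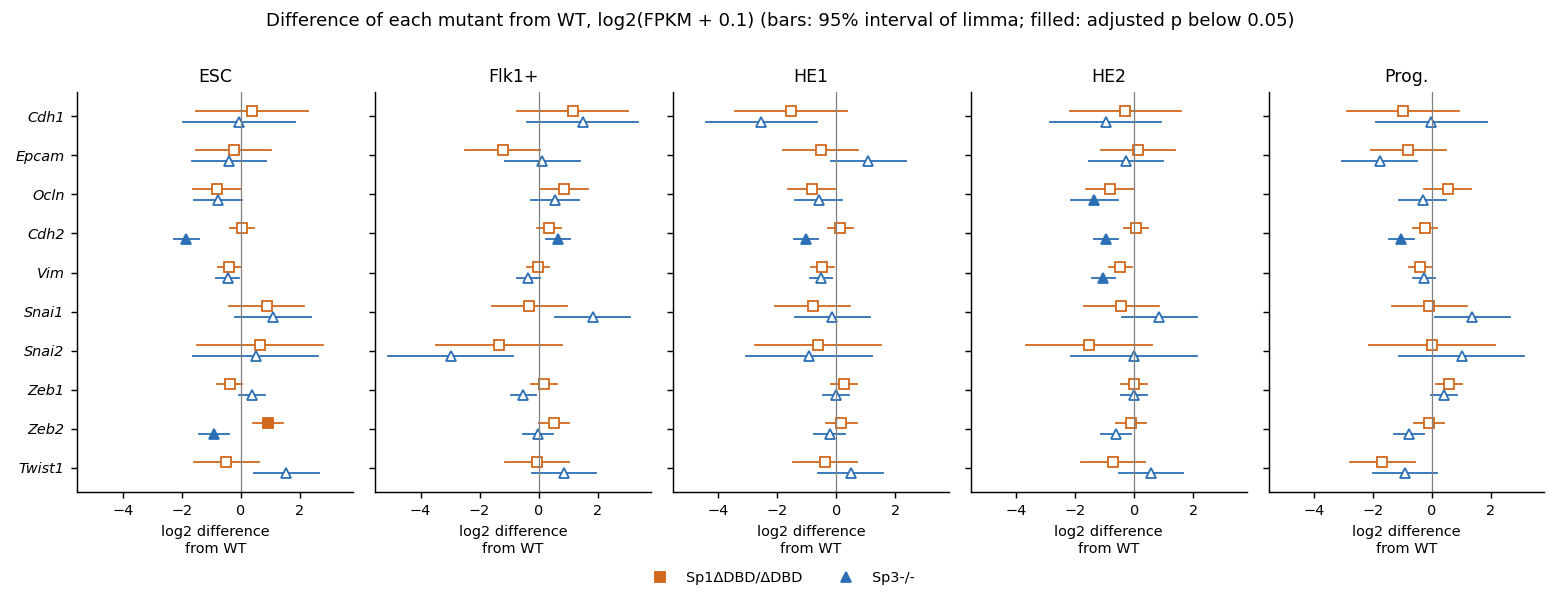
Symbols show the log2 difference of each mutant from WT for the 10 genes in each population, with bars for the 95% interval of limma and filled symbols for an adjusted p below 0.05. Of the 9 filled symbols 5 are those of Cdh2 in Sp3-/-, left of 0 in ESC, HE1, HE2 and progenitors and right of 0 in Flk1+ cells.

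The other genes called in Sp3-/- were Zeb2, Ocln and Vim. Zeb2 was 0.153 and 0.309 FPKM in Sp3-/- ESC and 0.643 and 0.397 in WT ESC (-0.92, limma adjusted p = 0.0203). Ocln was 0.559 and 1.02 FPKM in Sp3-/- HE2 and 1.96 and 2.21 in WT HE2 (-1.35, 0.0261). Vim was 526 and 531 FPKM in Sp3-/- HE2 and 1057 and 1125 in WT HE2, 2.06 times lower (-1.04, 0.00134). In each of these the samples of the genotypes did not overlap. The call of Zeb2 was lost with a pseudocount of 1 (0.323), with a correction for GC content and length (0.214) and without replicate 1 of either genotype. That of Ocln was lost with the same correction (0.0810) and without either WT replicate or Sp3-/- replicate 1. Both Vim values of Sp3-/- lay below both WT values in all 5 populations, as for 5.02% of all genes, although the difference was called in HE2 alone. In the other populations Vim was 1.21 to 1.44 times lower, and adjusted p-values were 0.0730 to 0.402. Zeb2 was also lower without overlap, though not called, in Sp3-/- HE1, HE2 and progenitors, as were 26.0%, 27.3% and 23.4% of all genes. In progenitors Zeb2 was 24.2 and 19.4 FPKM against 40.8 and 34.5 (-0.79). There it passed with a pseudocount of 1 (limma adjusted p = 0.0128), a minimum mean of 1 FPKM (0.0485) and values centred by chromosome (0.0350). In HE2 it passed with a pseudocount of 1 (0.0327). When each fit held the compared population only, 7 of the 8 calls were lost and Cdh2 in ESC remained.

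Snai1 was higher in Sp3-/- Flk1+ cells, with 42.4 and 59.3 FPKM against 14.8 and 13.1 in WT. The samples did not overlap and the means differed 3.64 times, but the log2 difference of 1.84 missed the threshold (limma adjusted p = 0.0540). It passed with a pseudocount of 1 (0.000172), with a minimum mean of 1 FPKM (0.0487) and with the compared population only (0.0298). It also passed without the 6 libraries, none of which is an ESC or Flk1+ sample. Leaving them out kept the log2 differences within ESC and within Flk1+ cells as they were and changed the shared spread alone. Snai1 made up 58.1% and 68.1% of the summed factors in these 2 samples. Snai2 in the same population was listed at 0 and at 0.0359 FPKM in Sp3-/- and at 0.603 and 1.11 in WT (-2.99, 0.0611, and 0.00189 without the 6 libraries). Without these libraries the steps of Snai2 to and from Flk1+ cells also differed from WT (-3.49, 0.0245, and 3.41, 0.0298), and Snai1 was called higher in Sp3-/- ESC (1.10, 0.0257), with 0.844 and 0.614 FPKM against 0.30 and 0.269 in WT. In progenitors Snai1 (2.49, 0.00171) and Snai2 (2.36, 0.0304) were then called higher, where the remaining WT sample had 0.000832 FPKM of each, the same value, against 0.326 to 0.655 in Sp3-/-. With all samples these 2 differences were 1.37 (0.179) and 1.004 (0.622). Cdh1 was 3.41 and 5.45 FPKM in Sp3-/- Flk1+ cells and 2.85 and 0.724 in WT Flk1+ cells (1.502, 0.307).

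Other markers also differed in Flk1+ cells of this genotype. The summed ESC markers were 491 and 450 FPKM in Sp3-/- and 164 and 126 in WT, with 4 of the 8 called higher (Sox2, Tdgf1, Dppa5a and Utf1), where 6.69% of all genes were called higher, while Nanog was 8.72 and 9.35 against 11.2 and 10.7. The summed markers of Flk1+ mesoderm were 601 and 660 against 498 and 491. Among them the primitive streak genes T (128 and 112 against 41.9 and 31.6) and Mesp1 (101 and 146 against 51.7 and 39.1) were higher in both mutant samples. Without T and Mesp1, the sum of the mesoderm markers left was slightly lower in both mutant samples than in both WT samples. The higher sum of the whole list thus came from T and Mesp1. The part of a different mix of cells in the values of Snai1, Cdh1 and Cdh2 was not tested.

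The balance of the cadherins is a further measure of the transition. The log2 difference of Cdh1 minus Cdh2 was 4.95 and 5.09 in WT ESC, 5.42 and 5.30 in Sp1ΔDBD/ΔDBD ESC, and 6.91 and 6.70 in Sp3-/- ESC. It was negative in each of the other 24 samples. In ESC Cdh1 itself was 115 and 113 FPKM in Sp3-/- and 123 and 114 in WT (-0.06, limma adjusted p = 1), while Cdh2 was called lower. In HE1 the difference was -4.36 and -6.82 in WT, and it was -6.16 and -8.37 in Sp1ΔDBD/ΔDBD. In both groups the higher value was that of the library rich in keratin.

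**Figure D5:**
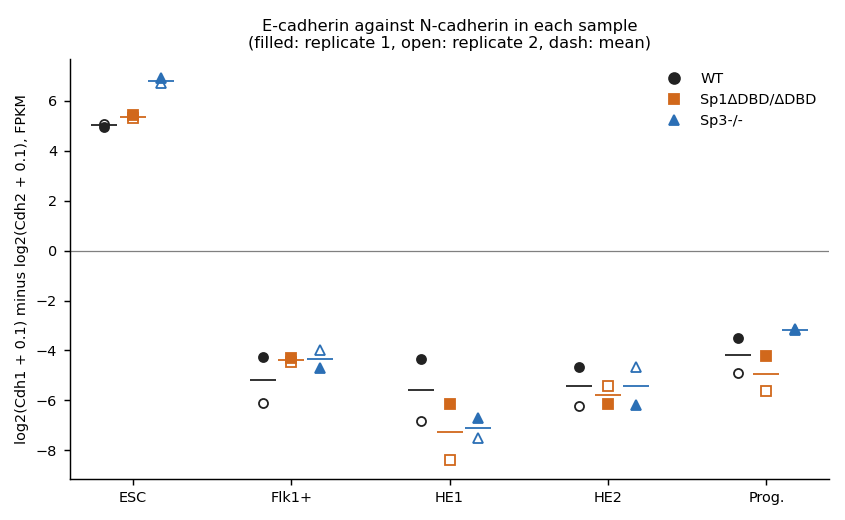
The log2(FPKM + 0.1) of Cdh1 minus that of Cdh2 is plotted for each sample, with filled symbols for replicate 1, open symbols for replicate 2 and dashes for the mean of each group. The 6 ESC samples lie above 0, highest in Sp3-/- (6.91 and 6.70), and all other samples lie below 0.

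In Sp1ΔDBD/ΔDBD cells, compared with the same WT samples, 1 of 50 tests was called and 12 had an unadjusted p below 0.05. Zeb2 was 1.26 and 0.886 FPKM in mutant ESC and 0.643 and 0.397 in WT ESC, 2.06 times higher with samples that did not overlap (0.93, limma adjusted p = 0.0289, with 6.06% of all genes called). The call was lost with a pseudocount of 1, with the compared population only, without WT ESC replicate 2 and without Sp1ΔDBD/ΔDBD ESC replicate 1. Zeb2 in ESC thus lay above WT in 1 mutant and below it in the other, at values near 1 FPKM or less. In Flk1+ cells, HE1, HE2 and progenitors limma called 0 of the 10 genes, with 2, 2, 2 and 3 at an unadjusted p below 0.05, where 5.54%, 10%, 9.67% and 8.78% of all genes were called.

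Cdh2 was called in no population of Sp1ΔDBD/ΔDBD, and the mutants were not tested against each other. Cdh2 in mutant ESC was 3.37 and 3.98 FPKM, which overlapped WT, and the 95% interval of the log2 difference was -0.37 to 0.46. Vim was lower in Sp1ΔDBD/ΔDBD HE1 (1729 and 1849 against 2259 and 2745 FPKM), HE2 (805 and 775 against 1057 and 1125) and progenitors (188 and 251 against 265 and 318). These samples did not overlap, as for 19.9%, 18.6% and 17.7% of all genes that were lower, and the differences of -0.48, -0.46 and -0.42 missed the threshold (limma adjusted p = 0.103, 0.116 and 0.174). That in HE1 passed with values centred by chromosome (0.0477). Twist1 in progenitors was 0.484 and 0.234 FPKM against 1.52 and 1.15, 3.71 times lower, and just missed the threshold (-1.68, limma adjusted p = 0.0505). It passed with a minimum mean of 1 FPKM (0.0464) and with values centred by chromosome (0.0392), and was 0.183 without the 6 libraries. Snai1 in progenitors was 0.00595 and 0.30 FPKM against 0.376 and 0.000832 in WT (-0.09, 0.955). The values 0.00595 and 0.000832 were the lowest listed in their samples. Without the 6 libraries the difference changed sign, to 1.99. It then set 1 mutant sample at 0.30 FPKM against 1 WT sample at 0.000832. Zeb1 in progenitors was 6.18 and 6.29 against 4.55 and 3.78 (0.58, 0.0992). Of 40 step differences between Sp1ΔDBD/ΔDBD and WT limma called 0, and 4 had an unadjusted p below 0.05. The share of all genes called was 1.74%, 1.53%, 0.00688% and 0.0207% at the 4 steps. Among these 4 were both steps of Ocln around Flk1+ cells (1.69, 0.142, and -1.71, 0.139), where Ocln was 0.402 and 0.319 FPKM in the mutant and 0.130 and 0.172 in WT.

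Of the wider lists, few genes were called between genotypes. Of the 28 further mesenchymal genes, 0 rose and 5 fell in Sp3-/- HE1 (Tgfbi, Itgav and Tpm1 among them), with a median log2 difference of -0.79, where 4.87% of all genes were called lower and the median of all was 0.05. In the same list 0 rose and 4 fell in Sp1ΔDBD/ΔDBD HE1 (Tgfbi, Mmp2, Mmp14 and Ltbp1), with a median of -0.64, where 4.35% of all genes were called lower and the median of all was 0.02. Without the 6 libraries 6 fell in each, with medians of -0.66 in Sp3-/- and -0.70 in Sp1ΔDBD/ΔDBD, and Tpm1 was not among those called. Tpm1, which encodes a tropomyosin, was 307 and 218 FPKM in Sp3-/- HE1 and 1159 and 437 in WT HE1, where the higher value is that of the library rich in keratin. Of the 38 epithelial genes, 3 rose and 2 fell in Sp3-/- Flk1+ cells, where 6.69% of all genes were called higher and 5.94% lower. Among those that rose, F11r was 23.6 and 20.8 FPKM there against 10.7 and 7.83 in WT (1.27, limma adjusted p = 0.000852). Cdh5 was higher than WT in Flk1+ cells of both mutants, with 5.84 and 14.8 FPKM in Sp1ΔDBD/ΔDBD (2.28, 0.000111), 5.42 and 4.85 in Sp3-/- (1.43, 0.00486) and 1.62 and 2.09 in the WT samples that both share.

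For each gene the 3 others with the most similar course were listed, by Pearson's r of the log2 group means over the 15 groups, as a description of levels that share libraries and populations. Epcam went most closely with the pluripotency genes Pou5f1 (0.988) and Nanog (0.986) and with Camkv (0.987). Cdh1 went with Stac2 (0.985), B4galnt3 (0.984) and Lrrc2 (0.983), Vim with Rab12 (0.991), Ywhab (0.984) and Arhgap31 (0.982), and Zeb2 with Cnppd1 (0.990), Hgsnat (0.989) and Erbin (0.987). Snai1 went with Lrfn4 (0.969), Ypel3 (0.968) and Six2 (0.967), and Twist1 with Arhgef17 (0.966), Gata4 (0.962) and Fam149a (0.955). For Cdh2 they were Farp1 (0.966), Boc (0.959) and Cd40 (0.957), for Zeb1 Cdkl1 (0.969), Rgag4 (0.967) and Nfia (0.961), and for Ocln Gprc5a (0.968), 2010111I01Rik (0.958) and Gm16907 (0.947). The weakest likeness was that of Snai2, with Capn5 (0.923), Fzd4 (0.889) and Me1 (0.870).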

How the data were processed

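Total RNA depleted of ribosomal RNA was sequenced as stranded paired-end libraries from 30 samples. The authors trimmed the reads, aligned them to mm10 with HISAT2 2.1.0, calculated FPKM values per gene with StringTie 1.3.3, dropped genes that nowhere exceeded 1 FPKM and made the samples equal in distribution by quantile normalisation. The deposited values are these FPKM values. Read counts were not used here, the depth of each sample is unknown, so no counting error can be given for a value. The methods describe the replicates as biological. No pair of samples was identical, and Pearson's r between replicates was 0.967 to 0.989.

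The labels gave each sample its population, genotype and replicate number. Of the 14685 genes, the 14525 whose highest value exceeded 1 FPKM were tested. The values plus 0.1 were log2 transformed, and limma 3.58.1 in R 4.3.3 fitted the means of the 15 groups, with empirical Bayes moderation along an intensity trend and 15 residual degrees of freedom. Steps within a genotype, mutants against WT in each population, and differences of a step between a mutant and WT gave 30 comparisons. The authors called genes by a fold change with no test.

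The 10 genes, the wider lists and the markers were chosen with earlier results of these data known. All 10 genes are named. From each wider list the counts are given, and values for some of its 6 genes with the highest mean FPKM. The 3 genes most similar to each of the 10 are named. Other genes named, such as Col1a1, Postn, T, Mesp1 and the genes behind a count, were chosen after their values were seen. Gene positions, lengths and GC content were taken from the GENCODE M21 annotation of GRCm38, which matched 14559 symbols, 189 of them by an older symbol. Alternatives were a pseudocount of 1, no filter, a mean of at least 1 FPKM, no trend, a fit of the compared populations only, a replicate block within each population or genotype, centring by chromosome, a correction for GC content and length, and leaving out each replicate. Leaving out the 6 libraries rich in keratin was added after the data were seen. Where a replicate was left out, the lone sample of its group was assumed to vary like the other groups. Python 3.11.15, numpy 2.4.6, pandas 2.3.3 and matplotlib 3.10.9 were used.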

Additional observations from a re-analysis of the deposited data

Results flagged for a closer look

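The change of Cdh2 between populations differed between Sp3-/- and WT at 2 steps by the interaction term of limma. From ESC to Flk1+ cells the step was larger in Sp3-/- by 2.50 on the log2 scale (adjusted p = 0.000187), with both mutant samples below both WT samples in ESC and above them in Flk1+ cells. From Flk1+ cells to HE1 the step differed by -1.69 (adjusted p = 0.00317), with both mutant samples above WT in Flk1+ cells and below WT in HE1. Both tests use the same Flk1+ samples. The cause was not tested.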

How the results depend on the processing

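Of 86 calls of the 10 genes, 62 were made under every alternative but the one added later, which was not counted here, and 24 were lost under at least 1. The calls along WT and Sp1ΔDBD/ΔDBD steps (25 each) numbered 21 to 25 and 21 to 26 on leaving out each replicate, and those along Sp3-/- steps (25) 23 to 25. Other settings left these 3 counts within 1.5 times. The 8 calls of Sp3-/- against WT became 3 with the compared population only, 14 with the replicate block within each population, 14 with the block within each genotype, 13 without the 6 libraries and 7 to 10 on leaving out each replicate. The 1 call of Sp1ΔDBD/ΔDBD against WT became 2 with a mean of at least 1 FPKM, 0 with the compared population only, 5 and 4 with the block within population and genotype, 3 with values centred by chromosome, 2 without the 6 libraries and 0 to 3 on leaving out each replicate. The 2 step differences of Sp3-/- became 5 with a pseudocount of 1, 4 with the block within population, 4 without the 6 libraries and 2 to 3 on leaving out each replicate, and those of Sp1ΔDBD/ΔDBD stayed at 0. Without the 6 libraries Snai1 in Sp1ΔDBD/ΔDBD progenitors went from -0.09 to 1.99, with 1 sample left in each group compared. With a pseudocount of 1 the count of Sp1ΔDBD/ΔDBD against WT stayed at 1, with Zeb2 in ESC lost and Epcam in Flk1+ cells called. The cause of these changes was not tested. With a block (either kind), the added calls in Sp1ΔDBD/ΔDBD against WT were Vim in HE1 (adjusted p = 0.0270 within population and 0.0167 within genotype), HE2 (0.0312 and 0.0188) and progenitors (0.0386 within genotype), and within population Zeb1 (0.0361) and Twist1 (0.0210) in progenitors. In Sp3-/- against WT they were Vim in ESC (0.0339 and 0.0219) and HE1 (0.0166 and 0.00963), Cdh1 in HE1 (0.0328 and 0.0115), Snai2 in Flk1+ cells (0.00304 and 0.0260), within population Zeb1 in Flk1+ cells (0.0473) and Twist1 in ESC (0.0270), and within genotype Snai1 in Flk1+ cells (0.0315) and Zeb2 in progenitors (0.0310). The labels give 2 replicate numbers and do not say whether same-numbered samples came from the same culture. The main fit took all samples as independent. Deviations of same-numbered WT and mutant samples had correlations across genes of 0.169 to 0.443 for Sp1ΔDBD/ΔDBD and -0.0255 to 0.151 for Sp3-/-, and those of HE1, HE2 and progenitors 0.310 to 0.380 in WT, 0.347 to 0.543 in Sp1ΔDBD/ΔDBD and 0.0317 to 0.131 in Sp3-/-. Unknown depth limits values below 1 FPKM.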
